A study of Homo sapiens with 12 samples.

Results

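TMPRSS2 encodes a transmembrane serine protease of luminal prostate epithelium whose transcription is raised by androgen, and it is the gene whose promoter is often fused to ERG in prostate cancer. FOXA1 is a forkhead pioneer factor that binds its motif in closed chromatin and opens enhancers for the androgen receptor, and an enhancer upstream of TMPRSS2 is among the best known places where both factors bind. The gene lies on the minus strand, so that rising coordinates lead from the gene towards the upstream side.

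The sites described here are the peaks of 12 chromatin immunoprecipitation sequencing (ChIP-seq) libraries of LNCaP cells (a human line of prostate cancer that responds to androgen) whose centre lies in hg19 chr21:42820000-42920000. Peaks with 1 base or more in common were joined across libraries, which gave 12 sites from 55 peaks, of 178794 merged regions in the whole series. The sites are numbered 1 to 12 by rising coordinate. Every peak centred in the window was kept, whatever its signal. The window, the sites and the tests were, however, chosen with earlier results of these data known. The main fits below took only regions with a peak in every FOXA1 library. In the RefSeq gene order of GRCh38.p14, used for names only, TMPRSS2 stands between MX1 and RIPK4. No hg19 gene annotation was used here, so the sites are given by coordinates and by their distance from the strongest site, not as exonic, intronic or upstream.

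The study asks, by its title, how Polycomb and BUB3/USP7 control the stability of FOXA1. Cells of the first experiment were infected 5 days earlier and precipitated with an antibody against the HA tag, with 1 library per condition: the pGIPZ control vector, a short hairpin against FOXA1 (shFoxA1), shFoxA1 with wild-type (WT) FOXA1, and shFoxA1 with the K295A mutant; the last pair carry the HA tag and the first pair do not. In the second experiment an antibody against FOXA1 was used after 7 days with DMSO, EPZ-6438 at 1 µM, which inhibits EZH2, the methyltransferase of Polycomb, P5091 at 3 µM, which inhibits the ubiquitin protease USP7, or both drugs in combination, with 2 libraries per group. Whether replicates are separate cultures is not given, so p-values measure the spread between these libraries only.

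Signal is the deposited normalized tag count, the tags in a peak scaled to a library of 10000000 tags, and a library without a peak at a site has no value there. Library totals ran from 11640056 to 22589685 tags. One FOXA1 library stands apart: combination replicate 1 had 5.26% of its tags in peaks, where the other 7 FOXA1 libraries had 18.86% to 21.2%, and its median signal over the 24261 regions called in all 8 FOXA1 libraries was 15 against 35 to 40.2. The differences that rest on this library are therefore given with and without it. Peak width differed too, at 279 bases in combination replicate 1, 356 to 365 in the other replicate 1 libraries and 274 to 296 in replicate 2.

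FOXA1 bound the TMPRSS2 window at 3 sites in every FOXA1 library, and these 3 lie within 10 kb of each other at the higher coordinates of the window. They were site 8 (chr21:42892449-42892912), site 10 (chr21:42898203-42898686, 5764 bases further) and site 11 (chr21:42902285-42902765, 9845 bases further). Site 5 (chr21:42857919-42858341), at -34550 bases on the other side, was called in 6 FOXA1 libraries, and site 12 (chr21:42908566-42909048), 16127 bases beyond site 8, in 5. A further 6 sites were called in 1 or 2 FOXA1 libraries, and site 3 (chr21:42837819-42838237) was called only with the HA antibody. Of the 11 sites with a FOXA1 peak 27.27% were called in all 8 libraries, against 17.23% of 140823 such regions over the genome. Neither untagged HA library had a peak anywhere in the window.

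**Figure D1:**
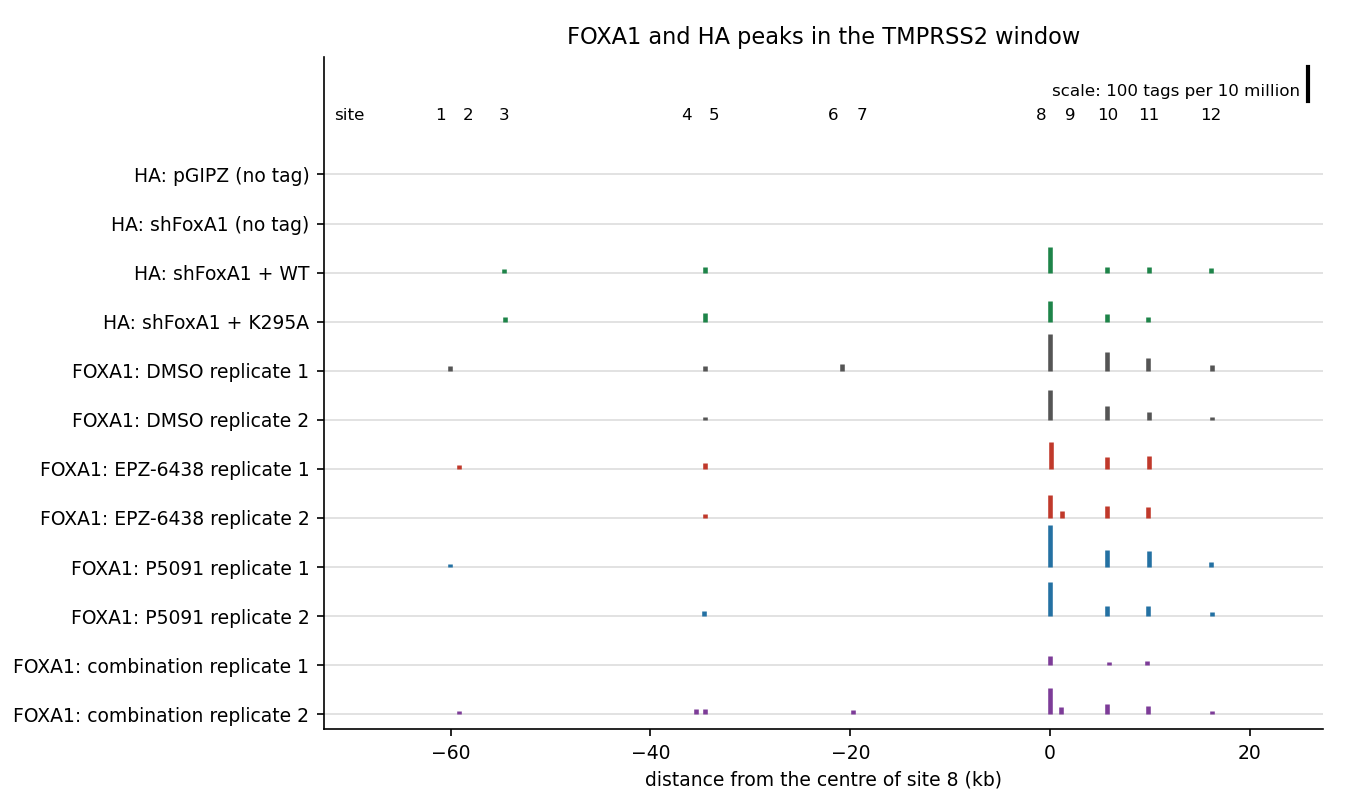
Peaks in the window for each of the 12 libraries (rows), by distance from the centre of site 8 in kb; bar height is the normalized tag count, with a scale bar of 100 tags per 10000000. Sites 8, 10 and 11 carry a bar in all 8 FOXA1 rows and both tagged HA rows, and the untagged rows are empty.

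The window is denser in FOXA1 sites than most of the genome. It held 11 regions called in any FOXA1 library, where tiles of the same length had a median of 4 and 5.65% of 30124 tiles held as many or more. Of regions called in all 8 libraries it held 3, against a tile mean of 0.806, and 7.34% of tiles held as many or more. These are positions among tiles of these libraries and carry no test.

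Site 8 was by far the strongest. Its signal in replicates 1 and 2 was 109 and 87.1 under DMSO, 79.2 and 68.3 under EPZ-6438, 123.9 and 101.1 under P5091, and 27.5 and 76.5 under the combination. Combination replicate 1 is the low value, and the next lowest library is EPZ-6438 replicate 2. From 44 to 190 tags stood behind these values. Site 8 ranked between 1163 and 3920 in its library, within the top 1.7% to 4.64% of peaks in 7 FOXA1 libraries and the top 11.3% in combination replicate 1. The peak caller put it 19.2 to 35.1 times above the surrounding 10 kb and 85.5 to 262.8 times above input.

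Site 10 had a middling signal for a site called everywhere. In the same order it gave 54.1 and 39.5 under DMSO, 35 and 36.6 under EPZ-6438, 48.9 and 30.9 under P5091, and 10.6 and 31.6 under the combination. DMSO replicate 1 was the highest and combination replicate 1 the lowest. In the latter library the peak rested on 17 tags, its centre lay at the far end of a range of 184 bases over the FOXA1 libraries, and its fold over input was 5.53, near the minimum of 4 that the caller required. The other 7 libraries gave 13.9 to 81.7 over input.

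Site 11 gave 36.6 and 24.4 under DMSO, 38.1 and 33.3 under EPZ-6438, 48.3 and 29.1 under P5091, and 13.8 and 24.5 under the combination. P5091 replicate 1 was the highest, and the DMSO and EPZ-6438 values overlap. Relative to the median of the tested regions of its own library, site 11 lay at 0.675 to 1.26, site 10 at 0.707 to 1.35 and site 8 at 1.79 to 3.22, so that site 8 was above the other pair in every library.

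The weaker sites were called near the limit of detection. At site 5 the signal was 13.9 and 8.13 with DMSO, 16.8 and 12.2 with EPZ-6438, 13.9 in P5091 replicate 2 and 14.2 in combination replicate 2, with no peak in P5091 replicate 1 or combination replicate 1. Site 12 gave 18.3 and 6.97 with DMSO, 14.4 and 10.9 with P5091 and 11 in combination replicate 2. It had no peak in either EPZ-6438 library or in combination replicate 1. The smallest number of tags that could be called corresponds to a signal of 6.20 to 8.13 in the 8 FOXA1 libraries, so a library without a peak at these sites may differ little from one with a peak, and no fold is given.

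Sites called in 1 or 2 FOXA1 libraries came in neighbouring pairs. Site 1 (chr21:42832416-42832787) was called in DMSO replicate 1 (14.6) and P5091 replicate 1 (9.13), and site 2 (chr21:42833293-42833655) in EPZ-6438 replicate 1 (12.8) and combination replicate 2 (10.3). No library had both, and the centres lay 869 to 917 bases apart. Site 6 (chr21:42871670-42872034) was called in DMSO replicate 1 alone (19.0) and site 7 (chr21:42872822-42873096), 1107 bases away, in combination replicate 2 alone (13.4). Site 4 (chr21:42857063-42857337) was likewise called in combination replicate 2 alone (15.0), beside a site 5 peak of the same library. Whether such pairs are separate sites or moved summits was not tested.

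Site 9 (chr21:42893606-42893987) is a second peak next to site 8, and was called only in EPZ-6438 replicate 2 (22.0) and combination replicate 2 (22.1). Its centre lay 1120 and 1050 bases from that of site 8 in those libraries. Over input it stood at 35 and 17.3, but over the surrounding 10 kb, which holds site 8 as well, at 4.05 and 4.16, just past the 4 required for a call. Both libraries belong to replicate 2 and both received EPZ-6438, and replicate 1 of the same treatments had no peak here. What signal the other libraries had at this place cannot be read from peak lists.

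**Figure D2:**
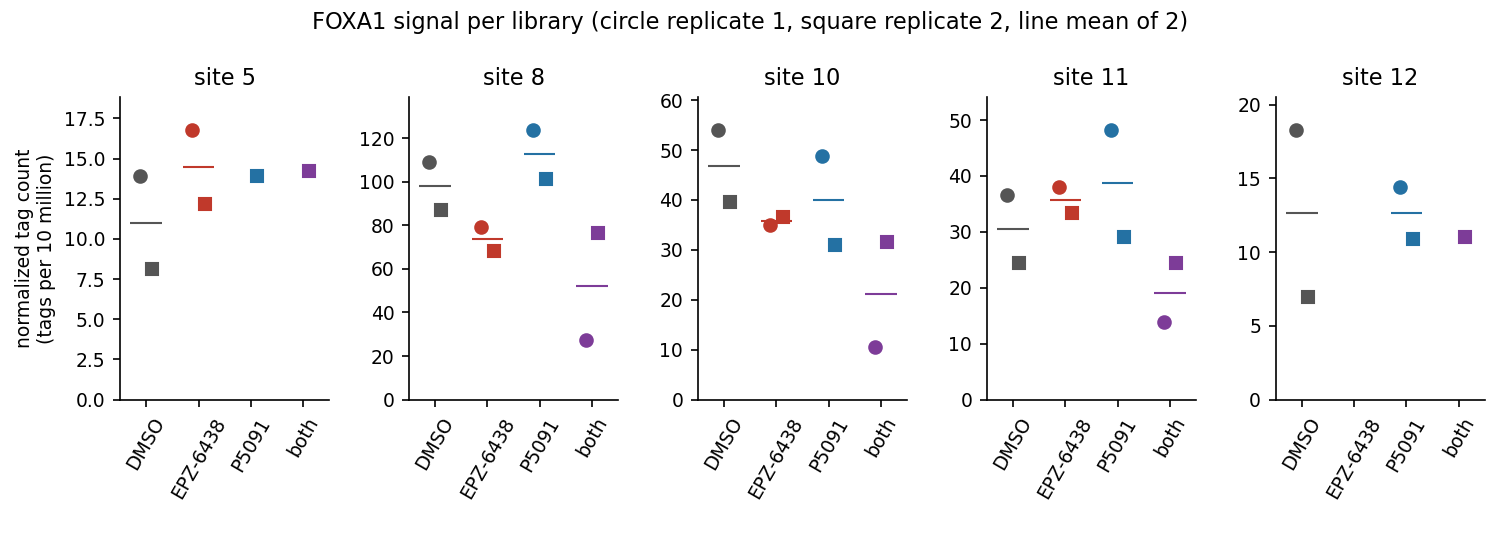
Normalized tag count (tags per 10000000, axes from 0 and scaled per site) at the 5 sites called in at least 4 FOXA1 libraries, by treatment; circles are replicate 1, squares replicate 2 and lines the mean of 2 libraries. At site 8 the 4 libraries with EPZ-6438 lie at 27.5 to 79.2 and the 4 without at 87.1 to 123.9; missing points are libraries without a peak.

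Inhibition of EZH2 was compared with DMSO at the 3 sites called everywhere, in a fit over all 24261 such regions of the genome. At site 8 the mean was 98.05 ± 15.5 (SD, n = 2) with DMSO and 73.75 ± 7.71 (n = 2) with EPZ-6438, a log2 difference of -0.40 ± 0.58 (SE; limma adjusted p = 1). Site 10 moved from 46.8 ± 10.3 to 35.8 ± 1.13, a log2 difference of -0.36 ± 0.60 (limma adjusted p = 1), and site 11 from 30.5 ± 8.63 to 35.7 ± 3.39, a log2 difference of 0.24 ± 0.60 (limma adjusted p = 1). None passed, and limma called 0 of the 24261 regions (0% higher, 0% lower), with 233 at an unadjusted p under 0.05; edgeR also called 0, with 255 at that level. At sites 8 and 10 both EPZ-6438 values lay below both DMSO values, as they did at 22.2% of all tested regions. The spread of this fit came from all 8 FOXA1 libraries, combination replicate 1 among them. In a fit on the EPZ-6438 and DMSO libraries alone the errors were smaller and the differences the same. They were -0.40 ± 0.31 at site 8, -0.36 ± 0.37 at site 10 and 0.24 ± 0.39 at site 11 (SE). No site passed there (limma adjusted p = 0.862, 0.902 and 0.945), and 10 of the 24261 regions were called (4 higher, 6 lower).

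In a fit with replicate blocks on median-centred libraries (block and centring), 0.322% of regions were called higher and 0.367% lower with EPZ-6438, none of them at TMPRSS2. In that limma fit the log2 difference was -0.35 ± 0.22 at site 8 (adjusted p = 0.523), -0.30 ± 0.29 at site 10 (adjusted p = 0.701) and 0.30 ± 0.30 at site 11 (adjusted p = 0.714).

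No difference under USP7 inhibition passed at the 3 sites, in a fit whose spread includes combination replicate 1. With P5091 the mean was 112.5 ± 16.1 (SD, n = 2) at site 8, 39.9 ± 12.73 at site 10 and 38.7 ± 13.6 at site 11. The log2 differences from DMSO were 0.20 ± 0.58, -0.24 ± 0.60 and 0.32 ± 0.60 (SE; limma adjusted p = 1 for each). A fit on the P5091 and DMSO libraries alone had smaller SE, at 0.29, 0.36 and 0.39, and no site passed there. Within same-numbered pairs the log2 ratio of P5091 to DMSO was 0.183 and 0.213 at site 8. It was -0.143 and -0.344 at site 10, and 0.391 and 0.245 at site 11. A lower ratio was found at 77.86% and 68.16% of tested regions for site 8. For site 10 these shares were 40.95% and 15.61%, and for site 11 they were 91.39% and 70.84%. Both pairs had the same sign at each site, but how many tested regions do so was not counted. When single libraries were left out of the unpaired fit, site 10 differed by 0.08 without P5091 replicate 2 and site 11 by -0.04 without P5091 replicate 1. With block and centring site 11 kept its sign in each such fit (0.17 to 0.47), and site 10 ran from -0.54 to 0.05. The groups overlapped at all 3 sites, where 9.38% of tested regions were higher and 11.2% lower in both P5091 libraries. Over the genome neither limma (0% in either direction) nor edgeR called a region, with 12 in limma and 13 in edgeR at an unadjusted p under 0.05.

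The combination was lower than DMSO at sites 8 and 10 in both libraries, and most of the size of that difference came from replicate 1. The log2 difference was -1.07 ± 0.58 at site 8 (SE; limma adjusted p = 0.357), -1.28 ± 0.60 at site 10 (limma adjusted p = 0.349) and -0.67 ± 0.60 at site 11 (limma adjusted p = 0.482), beside a median of -0.69 over all tested regions. Limma and edgeR both called 0 regions (0% in either direction), with 3418 and 2439 at an unadjusted p under 0.05. Both combination values were below both DMSO values at 42.5% of tested regions. When signal was scaled to the tags in peaks of each library, the combination and DMSO overlapped at sites 8 and 10, and 4.97% of regions were lower and 27.1% higher in both combination libraries. On that scale the log2 differences were -0.11 at site 8, -0.35 at site 10 and 0.27 at site 11 (limma adjusted p = 0.965, 0.866 and 0.908), beside a median region at 0.26. The 3 treatments share the DMSO libraries, so their differences are given side by side and not compared with each other. Without combination replicate 1, site 8 differed by -0.35, site 10 by -0.54 and site 11 by -0.28 (limma adjusted p = 0.842, 0.797 and 0.914).

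After median centring of the libraries, site 11 was level with DMSO and the others remained lower without passing. With block and centring the log2 differences were -0.39 ± 0.22 at site 8 (limma adjusted p = 0.327), -0.60 ± 0.29 at site 10 (adjusted p = 0.233) and 0.01 ± 0.30 at site 11 (adjusted p = 0.994), in a fit that called 1.8% of regions higher and 2.42% lower. Without combination replicate 1 they were -0.15, -0.31 and 0.02 (limma adjusted p = 0.851, 0.755 and 0.989).

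Site 8 was lower in each of the 4 libraries with EPZ-6438 than in any of the 4 without it. The ratio of EPZ-6438 to DMSO was 0.727 in replicate 1 and 0.784 in replicate 2, and that of the combination to P5091 was 0.222 and 0.757. Such separation, with lower signal under EPZ-6438, was found at 8.14% of all tested regions and at 4.07% once signal was divided by the median of each library. It does not hold on every scale: scaled to the tags in peaks (tags per 1000000 of them) site 8 took 52.3 in combination replicate 1, against 52.0 and 44.3 with DMSO, and the groups then overlapped, where 1.04% of regions separated with lower signal. The remaining libraries with EPZ-6438 gave 32.2 to 42.0 on that scale, and the libraries without it 44.3 to 62.4. This scale was chosen after seeing the data, and combination replicate 1 is the library that breaks the separation on it. How many tested regions separate when combination replicate 1 is set aside was not counted, so no weight is put on these ranges.

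The log2 difference at site 8 between libraries with and without EPZ-6438 was -0.83 ± 0.41 (SE; limma adjusted p = 0.556), below the -0.38 of the median region, and 7.42% of tested regions had a lower one. Here too limma and edgeR called 0 regions (0% in either direction), and 2156 and 1870 had an unadjusted p under 0.05. With block and centring the difference at site 8 was -0.47 ± 0.16 (adjusted p = 0.053), just short of the threshold of 0.05, in a fit that called 3.5% of regions higher and 4.06% lower. Without combination replicate 1 this fit gave -0.35 (adjusted p = 0.216) and the unpaired fit -0.47 (limma adjusted p = 0.443), where the median region lay at -0.09. In the blocked and centred fit without combination replicate 2 it was -0.58, beside a median region at 0.01. Without block or centring the same omission gave -1.19 at site 8, beside a median region at -0.66. In both fits combination replicate 1, the library with few tags in peaks, stood alone for its group and was assumed to vary like the others.

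Sites 10 and 11 did not separate in this way. Their log2 differences between libraries with and without EPZ-6438 were -0.70 ± 0.43 (limma adjusted p = 0.559) and -0.37 ± 0.42 (adjusted p = 0.682), and -0.33 ± 0.21 (adjusted p = 0.34) and -0.01 ± 0.21 (adjusted p = 0.99) with block and centring. Without combination replicate 1 these became -0.33 and -0.18 (limma adjusted p = 0.707 and 0.866), and -0.19 and 0.00 with block and centring (adjusted p = 0.696 and 0.998). Whether site 8 responds differently from its neighbours was not tested. Between libraries with and without P5091 the log2 differences were -0.23 ± 0.41 at site 8, -0.58 ± 0.43 at site 10 and -0.30 ± 0.42 at site 11 (limma adjusted p = 0.843, 0.84 and 0.84), beside a median region at -0.32. Without combination replicate 1 they were 0.13, -0.21 and -0.10 (limma adjusted p = 1 for each), beside a median region at -0.02, so that the sign at site 8 rests on that library. With block and centring the values were 0.08, -0.27 and 0.01 (limma adjusted p = 1 for each).

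**Figure D3:**
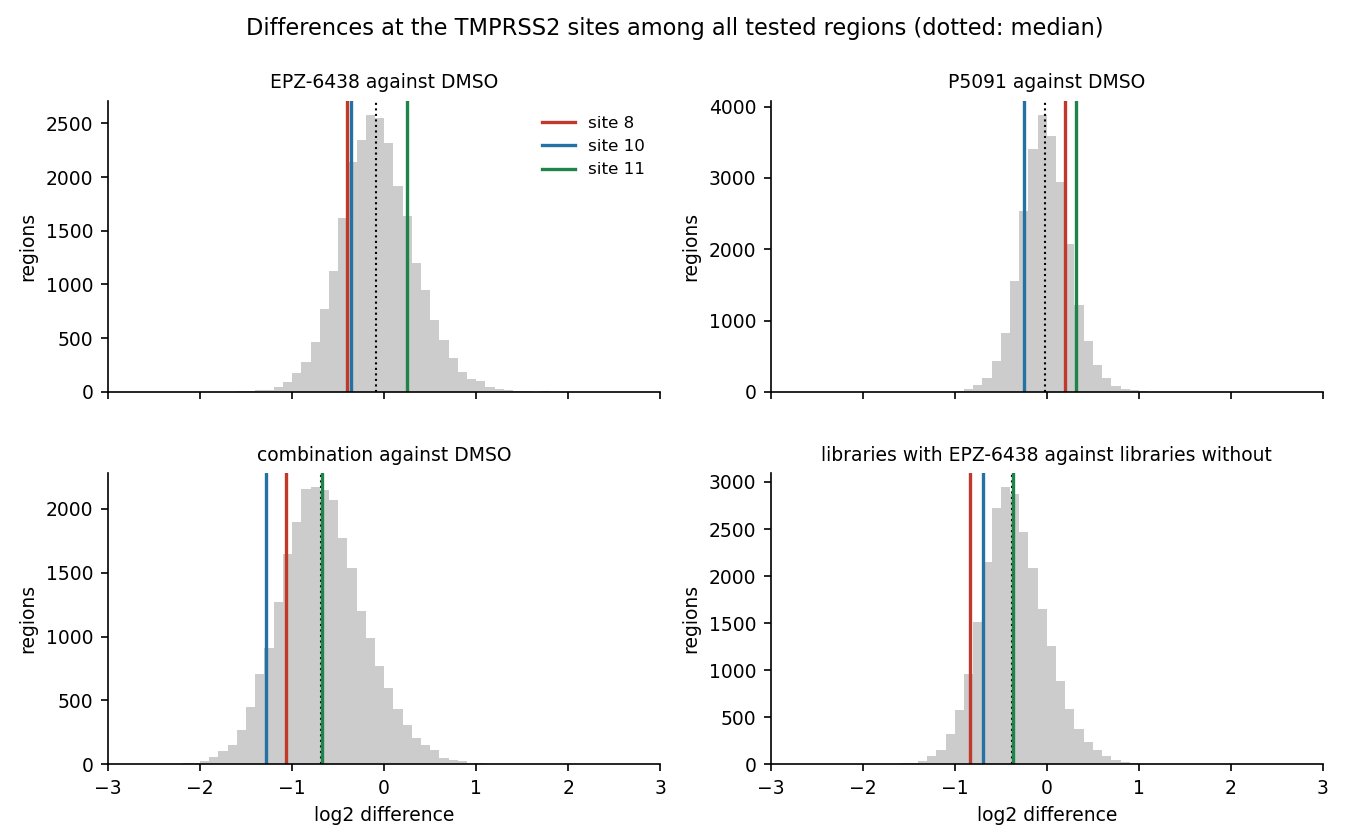
Number of tested regions by log2 difference (x axis, log2 of tag count plus 1) in 4 comparisons; coloured lines are sites 8, 10 and 11 and the dotted line is the median region. Site 8 lies below the median region in each panel except P5091 against DMSO, where it is at 0.20.

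The reintroduced HA-tagged proteins were both found at sites 8, 10 and 11, and also at site 5 and at site 3, where no FOXA1 library had a peak. WT had 6 peaks in the window and K295A had 5, so that both covered all 3 sites called in every FOXA1 library. Over the genome WT covered 91.35% of such regions and K295A 90.8%. None of the 6 sites called in 1 or 2 FOXA1 libraries had a tagged peak. How many such regions over the genome have a tagged peak was not counted, so this cannot be set against the shares above. The untagged libraries covered 0.03% and 0.02% of regions called in all 8 and none of the TMPRSS2 sites.

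At the 5 TMPRSS2 sites called with both WT and K295A, the interval of their ratio included 1. WT gave 74.0 and K295A 60.3 at site 8, and their ratio was 0.814 (95% exact Clopper-Pearson interval 0.598 to 1.11, from 97 and 80 tags). Site 10 gave 16.8 and 22.6 (ratio 1.35, 0.751 to 2.45) and site 11 gave 15.3 and 14.3 (0.938, 0.473 to 1.85). At site 5 the values were 16.8 and 24.9 (1.48, 0.838 to 2.67), and at site 3 they were 9.92 and 14.3 (1.44, 0.676 to 3.18). Over the 5 shared sites together the ratio was 1.03 (0.829 to 1.27), beside a median of 0.94 (quartiles 0.767 and 1.15) over 67719 regions shared genome-wide.

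None of these 5 sites had a measured ratio of 2-fold or more, as 2.3% of the shared regions did downwards and 0.926% upwards, but the intervals at sites 3, 5, 10 and 11 include such a ratio. Site 12 was called with WT (12.2, from 16 tags) and not with K295A, whose calling limit corresponds to 8.29, so no ratio is given there. There is 1 library per condition, so the intervals cover counting error only and no test between the proteins was possible.

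**Figure D4:**
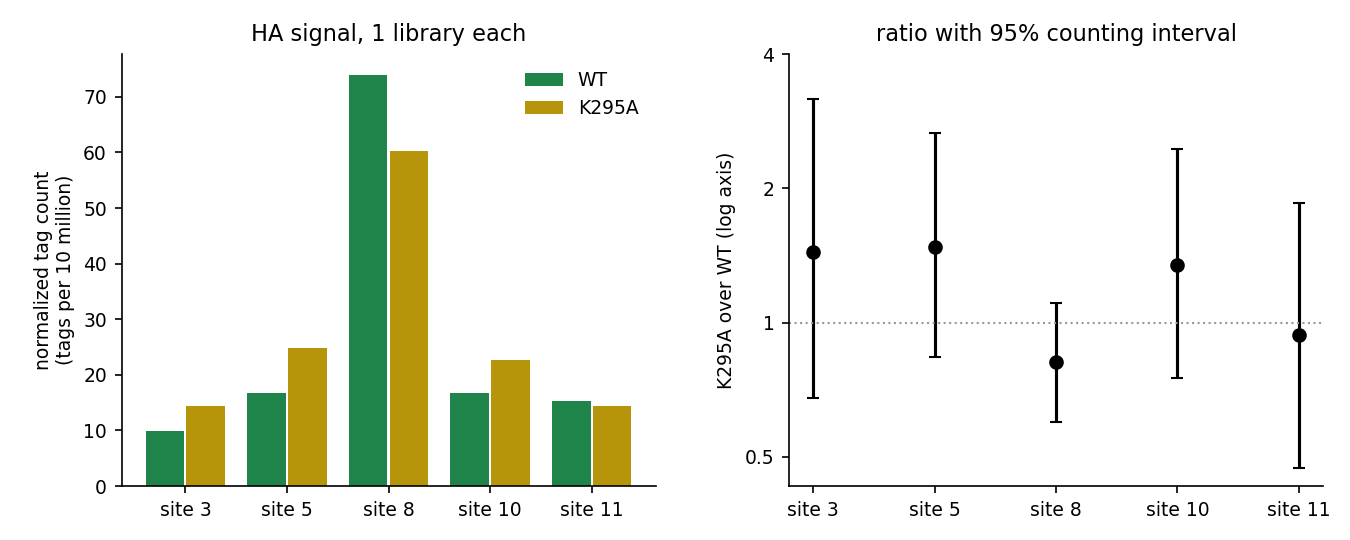
Left, normalized tag count (tags per 10000000) of WT and K295A at the 5 sites called with both, 1 library each; right, the ratio of K295A over WT on a log axis with its 95% counting interval. Every interval includes 1, and site 8 has the narrowest, 0.598 to 1.11.

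Tagged and endogenous signal were also set side by side at the sites with a tagged peak and a peak in both DMSO libraries. At site 8 the WT signal was 0.755 of the DMSO mean, close to the median of 0.746 over 42526 regions called in WT and both DMSO libraries. It was lower at site 10, at 0.359, a ratio undercut by 6.17% of those regions, and at site 11, at 0.502, undercut by 20.5%. K295A stood at 0.615 of the DMSO mean at site 8, 0.483 at site 10 and 0.469 at site 11, against a median of 0.726, and 36.6%, 18.5% and 16.9% of regions had lower ratios. At site 5 the tagged signal was above the DMSO mean, at 1.525 for WT and 2.26 for K295A, where 89.5% and 97.6% of regions had lower ratios. At site 12, on the same side of site 8 as sites 10 and 11, WT stood at 0.966 of the DMSO mean, and 68.75% of regions had lower ratios. No counting interval was computed for these ratios, and the DMSO peaks of site 5 rested on 19 and 14 tags. Site 3, which had no endogenous peak, lies on the same side of site 8 as site 5. So do sites 1, 2, 4, 6 and 7, which had no tagged peak.

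Within a library, which frees the ratio from any scaling, site 10 carried 0.227 of the tags of site 8 with WT (95% interval 0.136 to 0.363) and 0.375 with K295A (0.238 to 0.577), against 0.305 to 0.536 in the 8 FOXA1 libraries. Site 11 carried 0.206 of site 8 with WT (0.121 to 0.336) and 0.237 with K295A (0.136 to 0.395), against 0.28 to 0.5 for endogenous FOXA1. The WT and K295A ratios for site 11, and the WT ratio for site 10, were below those of all 8 FOXA1 libraries, though their intervals overlap several of them. The K295A ratio for site 10 lay inside the range of the FOXA1 libraries. The HA and FOXA1 maps differ in antibody, in peak width, in the use of an input library and in the infection of the cells, which cannot be told apart here.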

How the data were processed

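ChIP-seq peak lists of 12 LNCaP libraries (8 FOXA1, 4 HA) were used. Bowtie2 and HOMER 4.2 with hg19 are named in the submitters' processing notes. Per the file headers, findPeaks was run library by library (factor style), requiring an FDR of 0.001 and 4-fold over a local 10 kb, and for FOXA1 also 4-fold over input, with 1 input for both replicates of a treatment. The deposited normalized tag count is a signal value. The deposited findPeaks score served only for a stricter threshold, the deposited fold over local sequence and over input (a ratio) only to describe sites, and the deposited focus ratio, a fraction, was tabulated without being reported. The deposited total tag count is a whole-number count in 3 libraries, and equalled the tags recovered from the normalized values and the library totals for 97.3% to 100% of peaks.

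A library was given its highest peak in a region. Limma (version 3.58.1, R 4.3.3, trend on) was fitted on log2 (tag count + 1) of the 24261 regions with a peak in each of the 8 FOXA1 libraries, with 4 groups and Benjamini-Hochberg adjustment over all of them at 0.05. This scale understates changes of weak regions. EdgeR (version 4.0.16, quasi-likelihood) was run on the recovered tags. The steps were tested on simulated data. The simulation held no weak library like combination replicate 1, so it cannot show how the main fit behaves with one. Replicate numbers come from the titles: deviations of same-numbered libraries correlated at 0.148 to 0.488 in all 6 pairs of groups, so they were taken to pair the libraries. Peak width also differed between the replicates of DMSO, EPZ-6438 and P5091. These correlations therefore cannot tell matched libraries from a shared difference between replicates. All sites of the window are accounted for, and those called in at least 4 FOXA1 libraries are given in every library. The window, the sites and the tests were chosen with earlier results of these data known. Alternatives were the replicate block, centring, other merging, filters, pseudocount and scaling, edgeR, and leaving out each library. Intervals cover counting error only. No genome of the files' build was used here, and TMPRSS2 had 0 entries among the promoter sequences, so no sequence is shown.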

Additional observations from a re-analysis of the deposited data

Results flagged for a closer look

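At site 11 (chr21:42902285-42902765) EPZ-6438 went with higher signal without P5091 and with lower signal in its presence, in every pair of same-numbered libraries. Against DMSO the log2 difference was 0.056 in replicate 1 and 0.433 in replicate 2, beside a median region at -0.198 and 0.042. The combination against P5091 gave -1.74 and -0.239, beside a median region at -1.27 and -0.065. Site 11 was flagged by these signs, and how many tested regions share them was not counted. The interaction was -1.23 ± 0.85 (SE) and did not pass (limma adjusted p = 0.874), and 4.57% of tested regions had a lower one, beside a median of -0.60. With replicate block and centring it was -0.61 ± 0.42 (limma adjusted p = 0.999). Combination replicate 1, the library with 5.26% of its tags in peaks, supplies the value of -1.74. Without that library the interaction was -0.84 ± 0.60 (limma adjusted p = 1), 4.11% of tested regions had a lower one, and the median region lay at -0.01.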

How the results depend on the processing

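Of 435 alternatives for 16 site results, 388 kept direction and side of the threshold, 39 changed sign and 8 passed where the reported fit did not; the cause was not tested. The alternatives that left out a library with block and centring, used edgeR with block and TMM factors, peak width or tags in peaks were chosen after seeing the data. With the replicate block and centring, 167 regions were called for EPZ-6438 against DMSO, 1025 for the combination against DMSO and 1834 for libraries with EPZ-6438 against those without, none of them at TMPRSS2, and the block alone changed no call. EdgeR with block and TMM factors called 393, 782 and 1917. EPZ-6438 against DMSO gave 10 calls from its own libraries alone. Scaling to tags in peaks gave 13 for the combination and 20 for libraries with EPZ-6438, for which centring gave 38 and regions called in at least 4 libraries gave 6. P5091 against DMSO had 0 calls throughout. Leaving out 1 library moved the calls between 0 and 16162 for the combination, 0 and 5918 for the interaction, 0 and 11528 for libraries with EPZ-6438 and 0 and 7317 for libraries with P5091, the upper ends all without combination replicate 2. With block and centring those ranges were 0 to 619 for EPZ-6438 against DMSO, 44 to 1890, 0 to 0, 278 to 2852 and 0 to 2. All 8 alternatives that passed left out combination replicate 2, and with block and centring only that of libraries with EPZ-6438 at site 8 was among them. Without block or centring the combination then differed by -1.79, -2.03 and -1.06 at sites 8, 10 and 11, beside a median region at -1.25. Libraries with EPZ-6438 differed by -1.19 and -1.07 at sites 8 and 10, beside a median region at -0.66. Libraries with P5091 differed by -0.59 and -0.95 there, beside a median region at -0.60. These fits hold 1 combination library, with 5.26% of its tags in peaks, assumed to vary like the other groups. With block and centring the same omission gave -0.62, -0.89 and 0.00 for the combination. It gave -0.58 and -0.47 for libraries with EPZ-6438 at sites 8 and 10, and -0.04 and -0.42 for libraries with P5091. At site 11 the combination turned to 0.01 with centring, with block and centring and with edgeR with block and TMM factors, and to 0.27 when scaled to tags in peaks; leaving out 1 library it ran from -1.06 to 0.05. Libraries with EPZ-6438 at site 11 turned to 0.10 when scaled to tags in peaks and ran from -0.57 to 0.07. Libraries with P5091 turned to 0.08 at site 8 and 0.01 at site 11 with centring and with block and centring, to 0.10 and 0.02 with edgeR with block and TMM factors, and to 0.24 and 0.17 when scaled to tags in peaks; leaving out 1 library they ran from -0.59 to 0.20 and from -0.49 to 0.08. Leave-one-out ranges also crossed 0 for P5091 at site 10 (-0.57 to 0.08) and site 11 (-0.04 to 0.67) and for EPZ-6438 at site 11 (-0.04 to 0.53). The window held 8 sites above a stricter score and 10 to 12 without 1 library. The K295A ratio of 1.03 ran from 1.001 to 1.093. With 12 to 25 tags behind each FOXA1 peak of site 12, depth limits what can be told of the weak sites. Fits on the libraries of a comparison alone were not run for the interaction or the comparisons of 4 against 4 libraries, which use all 8.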
